A study of Mus musculus with 6 samples.

Results

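The catenins and the effectors of canonical Wnt signaling were followed in c-Kit+ APL progenitors and normal MPs of the mouse. The 10 genes were chosen by name: the catenins Jup and Ctnnb1, the TCF/LEF transcription factors Tcf7, Lef1 and Tcf7l2, the destruction complex genes Axin1, Axin2, Apc and Gsk3b, and the corepressor Tle1. All 10 are among the 16440 genes of the deposited table. The normal MPs were bone marrow cells sorted as Lin-Sca-1-c-Kit+, from FVB N/J mice. The APL cells, also of the strain FVB N/J, derived from hMRP8-PML/RARα transgenic mice, in which the MRP8 promoter drives the human fusion gene in myeloid cells. They had been marked with GFP by the retroviral vector MigR1, expanded by transplantation into syngeneic mice, and sorted from untreated recipients, as far as the labels say, as GFP+ c-Kit+ cells. Lineage and Sca-1 gates are named for the MPs and not for the APL cells, so the gates were not the same. The study's methods give the recipients' age only as a range for all its transplantations, and neither the age of the mice behind each library was given nor whether the leukemia came from 1 founder mouse. Each group had 3 libraries, which the submitters call biological replicates without naming the mice, so p-values measure the spread between these libraries.

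In canonical Wnt signaling, β-catenin (Ctnnb1) is held low by a destruction complex in which the scaffolds Axin and Apc present it to the kinase Gsk3b. When a Wnt ligand binds Frizzled and Lrp5 or Lrp6, the complex is inhibited and β-catenin enters the nucleus to act with TCF/LEF factors, which otherwise recruit Groucho corepressors such as Tle1. Plakoglobin (Jup, γ-catenin) is the close paralog of β-catenin, links cadherins to the cytoskeleton in adherens junctions and desmosomes, and is known from human cells as a gene induced by AML fusion proteins such as PML/RARα.

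The RefSeq promoters of Jup and Tcf7l2, which were lower in c-Kit+ APL progenitors, and of Tle1, which was higher, are shown first. Tcf7 and Axin2 were also called lower, but their windows lie inside the RefSeq gene, so none of their bases are printed. Each sequence is on the strand of its gene in GRCm38, written 5′ to 3′, with CG dinucleotides in capitals, and covers the part of the 250 bases before a RefSeq transcript start that lies outside the RefSeq gene.
Jup, chr11:100397840-100398040, minus strand: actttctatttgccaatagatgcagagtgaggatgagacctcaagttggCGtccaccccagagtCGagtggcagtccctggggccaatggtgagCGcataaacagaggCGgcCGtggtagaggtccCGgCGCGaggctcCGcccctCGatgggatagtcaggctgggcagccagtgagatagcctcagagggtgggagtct
Tcf7l2, chr19:55741560-55741796, plus strand: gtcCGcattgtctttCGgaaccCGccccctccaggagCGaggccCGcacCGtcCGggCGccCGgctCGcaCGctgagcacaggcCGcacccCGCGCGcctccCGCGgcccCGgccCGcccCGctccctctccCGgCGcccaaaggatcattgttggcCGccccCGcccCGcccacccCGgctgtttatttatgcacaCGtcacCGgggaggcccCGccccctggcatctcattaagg
Tle1, chr4:72200990-72201143, minus strand: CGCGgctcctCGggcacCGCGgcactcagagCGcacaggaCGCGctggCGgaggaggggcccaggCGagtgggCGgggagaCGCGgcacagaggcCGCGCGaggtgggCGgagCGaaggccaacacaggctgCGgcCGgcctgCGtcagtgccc
Over the full 250 bases, the window of Jup had 13 CG dinucleotides and a GC content of 62.0%, that of Tcf7l2 30 and 72.8%, and that of Tle1 35 and 77.2%, against medians of 6 and 52.4% over 32851 mouse promoter windows of the same length. Gsk3b and Ctnnb1, which were not called, were also above these medians. The window of Gsk3b had 15 and 62.0%, and those of Ctnnb1 had 35 and 74.8%, and 43 and 74.4%. The letters CTTTGA, the core of TCF/LEF sites, were in none of the 3 windows of Jup, Tcf7l2 and Tle1 on either strand, and were in 13.8% of all windows. The letters AGGTCA, the core of retinoic acid receptor sites, were also in none of the 3 and in 14.02% of all windows. Among the other members, 1 window of Tcf7, which was also called lower, held AGGTCA once. CTTTGA was found once in that of Gsk3b and at 2 places in 1 window of Lef1. These counts say only that the letters are not in these windows.

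Total fragments were between 22976881 and 26932357 in the MP libraries and between 20608715 and 28382785 in the APL libraries, once the authors' scaling was undone. Pairs of libraries of the same group differed by 3.30 to 13.7 times counting noise, so none was a copy of another, and both pairs with MP library 3 were at the upper end. Kit had 70.6 to 74.5 FPKM (fragments per kilobase of transcript, scaled to the depth of the library) in MPs and 39.6 to 40.7 FPKM in APL progenitors. Of the other sorting markers listed, Cd34 (83.9 to 112 and 1.04 to 1.26), Cd48 (57.6 to 67.6 and 0.655 to 1.01) and Slamf1 were lower in APL progenitors. Higher there were Fcgr3 (18.8 to 24.95 and 76.1 to 87.6), Fcgr2b (25.8 to 31.2 and 75.7 to 81.7) and Ly6a. Ly6a, the gene of Sca-1, had 0.955 to 1.59 FPKM in MPs and 2.02 to 2.37 FPKM in APL progenitors. The summed FPKM of 14 erythroid markers was 2146 to 2663 in MPs and 48.3 to 57.9 in APL progenitors, and that of 9 megakaryocyte markers 73.9 to 111 and 4.76 to 6.43. The sum of 8 promyelocyte markers was 9582 to 10814 in MPs and 26096 to 30524 in APL progenitors. Of these, Prtn3 (1354 to 1582 and 1392 to 1696) and Cebpe (29.7 to 39.1 and 34.8 to 47.8) overlapped between the groups. For 8 mast cell and basophil markers it was 84.1 to 112 and 42.9 to 51.0, and for 9 stromal and endothelial markers 14.6 to 18.4 and 4.86 to 6.01. In the mast cell and basophil list, Mcpt8 was higher in APL progenitors (14.5 to 19.4 and 35.5 to 40.3). Prss34 overlapped (1.78 to 6.52 and 4.54 to 7.74). The others were lower, mainly Cpa3 (27.4 to 40.6 and 0.463 to 1.14) and Gata2 (30.2 to 42.4 and 0.708 to 1.08). In the stromal and endothelial list, Col1a1, Lepr and Cdh5 were higher in APL progenitors and the others lower. Cdh5 had at most 1 fragment before scaling in an MP library and 4 in an APL library. The 11 monocyte and dendritic cell markers summed to 870.1 to 1043 in MPs and 10631 to 10949 in APL progenitors. Ly6c2 alone made 790.3 to 944.6 and 10600 to 10915 of these sums. The other markers of this list were mixed. Emr1, Ccr2 and Itgax were higher in APL progenitors and Klf4 overlapped. Irf8 (35.4 to 44.0 and 1.21 to 1.58), Csf1r, Flt3, Cx3cr1, Cd74 and Siglech were lower. The 10 innate lymphoid and NK markers summed to 233 to 261 and 241 to 266, nearly all of it Nkg7 (231 to 259 and 240.2 to 265), and of the others Gata3 and Rora reached at most 41 and 9 fragments before scaling in an MP library and 1 and 0 in an APL library. The part of these cell types in the differences below was not tested, and in such bulk samples fewer cells of a type and less RNA per cell cannot be told apart.

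Of the 10 members, Jup, Tcf7, Tcf7l2 and Axin2 were lower in c-Kit+ APL progenitors and Tle1 was higher, at an adjusted p under 0.05 and a fold change over 1.5 in limma, whereas Ctnnb1, Axin1, Apc and Gsk3b were not called. Lef1 was too low to be tested. Calls were common in this comparison: 24.4% of the 14595 genes tested were lower, 21.7% were higher, and 46.1% were called in either direction. The 4 lower and 1 higher members of the 9 tested are to be read against these shares. Axin2 passed the filter on low values only through the MP libraries, so the filter itself favored a difference and the call of Axin2 is not independent of it. The median log2 fold change was −0.16 over these 9 members and −0.10 over all genes tested. For 6 of the 9 the scaled fragments of the groups did not overlap, against 70.9% of all genes tested.

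**Figure D1:**
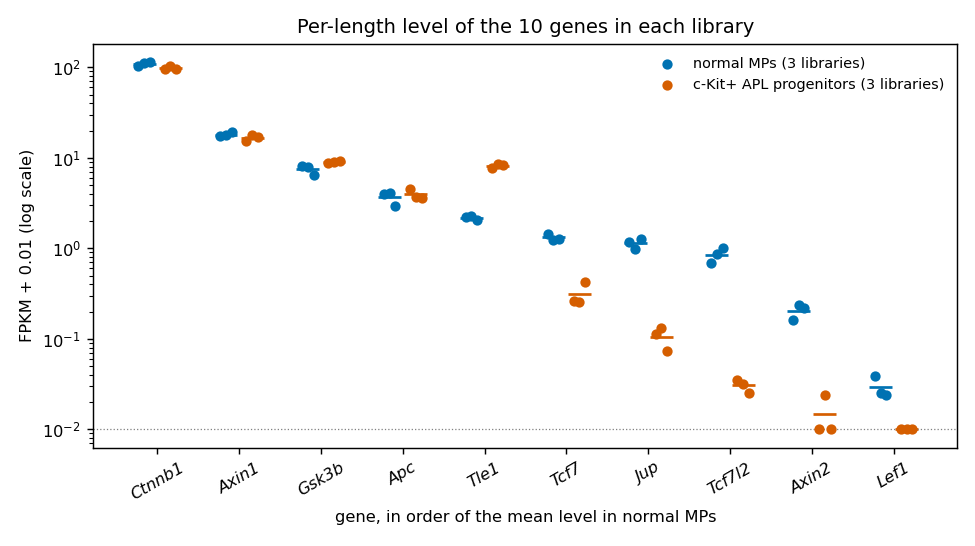
Per-length level of the 10 genes in each library, as FPKM plus 0.01 on a log axis, with genes in the order of their mean in normal MPs, 1 point per library and a line at each group's mean. Ctnnb1, Axin1, Gsk3b and Apc lie at similar levels in both groups, Tle1 is higher in the APL libraries, and Tcf7, Jup, Tcf7l2 and Axin2 are lower there. Lef1 is at or under 3 fragments in every library.

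Jup, on chromosome 11 of GRCm38 from 100368856 to 100397790, counted, in libraries 1 to 3 in order here and throughout, 160.2, 129.5 and 177.7 scaled fragments (fragments on the authors' common scale) in the MPs and 14.1, 16.5 and 8.64 in the APL progenitors. Each APL library lay far below each MP library, and the groups did not overlap. The mean fell from 156 ± 24.4 to 13.1 ± 4.02 (SD, n = 3 each). The log2 fold change was −3.51 ± 0.27 (SE), an 11.4-fold decrease (adjusted p = 4.8e-06 from limma). The fold rests on 7 to 19 fragments per APL library before scaling. On log2(FPKM + 0.1) the log2 fold change of Jup was −2.66, since the added constant then weighs more.

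Ctnnb1, on chromosome 9 from 120933400 to 120960507, was the most abundant member per length in both groups. It counted 9755, 10744 and 11034 scaled fragments in the MPs and 9093, 9902 and 9292 in the APL progenitors. The groups overlapped in scaled fragments, because APL library 2 was above MP library 1, and were apart in FPKM only by 102.30 against 102.39. The log2 fold change was −0.16 ± 0.08 (SE) (adjusted p = 0.12 from limma), and the 95% interval of the ratio of APL to MP ran from 0.791 to 1.02, inside a 1.5-fold change in either direction.

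The balance of both catenins was compared within each library, so that the scaling of a library cancels. Jup made up 1.13%, 0.850% and 1.10% of the summed FPKM of Jup and Ctnnb1 in MP libraries 1 to 3. In APL libraries 1 to 3 it made up 0.109%, 0.117% and 0.0666%. β-catenin thus made up nearly all catenin mRNA of this pair in both groups, and the share of plakoglobin was lower in every APL library than in every MP library. The mean share was 1.03 ± 0.155% in MPs and 0.0976 ± 0.0271% in APL progenitors (SD, n = 3 each, two-sided exact permutation p = 0.1, the smallest that 3 libraries against 3 allow).

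The TCF/LEF genes encode the DNA-binding partners of β-catenin. Tcf7 (TCF-1), on chromosome 11 from 52252604 to 52282571, counted 83.4, 69.5 and 73.0 scaled fragments in the MPs and 14.1, 13.9 and 23.5 in the APL progenitors. The groups did not overlap, and APL library 3 was the highest of its group. The log2 fold change was −2.11 ± 0.26 (SE), a 4.31-fold decrease (adjusted p = 9.6e-05 from limma).

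Tcf7l2 (TCF-4), on chromosome 19 from 55741810 to 55933655, counted 63.7, 74.3 and 89.3 scaled fragments in the MPs and 2.36, 1.73 and 1.23 in the APL progenitors. Before scaling, these were 68, 78 and 99 fragments against 2, 2 and 1. Tcf7l2 had the largest fitted decrease of the members, with a log2 change of −4.80 ± 0.29 (SE) (adjusted p = 1.0e-06 from limma). Its 95% interval, −5.45 to −4.14, overlapped that of Axin2, −5.21 to −3.13, so which of them fell more is not settled. As so few fragments remained, the ratio of MP to APL is better given from the fragments themselves, as 42.7 with an exact 95% counting interval of 18.1 to 133, which covers counting error only.

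Lef1, on chromosome 3 from 131110471 to 131223331, had 2, 1 and 1 fragments before scaling in MP libraries 1 to 3 and 0 in each APL library. All libraries lay at or under 3 fragments, the limit taken for a gene that cannot be told from absence, so no fold change is given.

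Per length, Tcf7 was the main TCF/LEF transcript in both groups. In scaled fragments, not set per length, Tcf7l2 exceeded Tcf7 in MP libraries 2 and 3, and the mean shares in MPs were 44.7% and 44.5%. The 4 genes of the family, Tcf7, Lef1, Tcf7l1 and Tcf7l2, summed to 2.48, 2.32 and 2.51 FPKM in the MPs and to 0.277, 0.293 and 0.432 FPKM in the APL progenitors. Tcf7 made up 58.2%, 53.5% and 50.5% of the sum in the MPs and 90.9%, 83.6% and 96.5% in the APL progenitors. Tcf7l2 made up 34.5 ± 6.35% of the sum in MPs and 6.64 ± 2.86% in APL progenitors (SD, n = 3 each). For both genes the shares of the groups did not overlap (two-sided exact permutation p = 0.1 each, the smallest possible). Tcf7l1, a family member that mostly acts as a repressor, made up 10.6 ± 2.32% in MPs, and in APL progenitors it was seen in library 2 only, with 2 fragments before scaling, so the composition of the APL sum rests on few fragments.

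**Figure D2:**
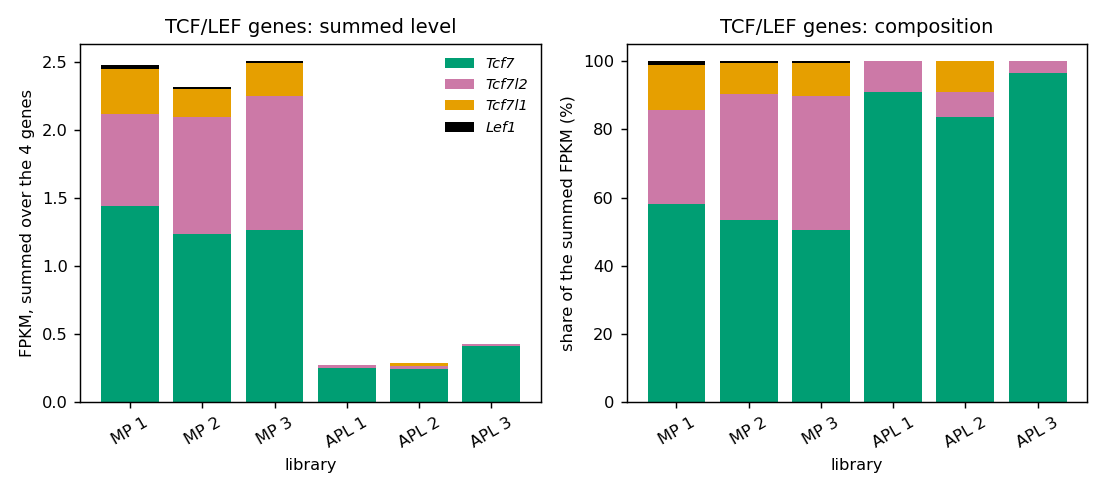
FPKM of the 4 TCF/LEF genes in each library, stacked to their sum (left) and as shares of that sum in percent (right). The 6 bars are the single libraries. The APL sums reach 0.277 to 0.432 FPKM against 2.32 to 2.51 in the MP libraries, and Tcf7 fills 83.6% to 96.5% of the APL bars.

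Because Tcf7 and Lef1 are also genes of T and B lymphocyte development, lymphoid markers are given beside them. The 10 T cell markers in the table summed to 4.34 to 6.36 FPKM in MPs and 2.70 to 3.63 FPKM in APL progenitors. Cd4 made most of the difference, with 1.93 to 2.35 FPKM in MPs and at most 0.0542 FPKM in APL progenitors. Cd3e was at or under 3 fragments in every library, and Cd3g and Bcl11b were at 0 in the APL libraries. Lck, in contrast, had 1.12 to 1.69 FPKM in MPs and 1.59 to 2.34 FPKM in APL progenitors, and Cd5 0.0478 to 0.158 and 0.240 to 0.340. The 11 B cell markers summed to 15.2 to 17.7 FPKM in MPs and 259 to 299 FPKM in APL progenitors. Of the latter, Igll1, a surrogate light chain gene, made 250 to 288 FPKM, and Vpreb1, its partner in the surrogate light chain, had 0.507 to 0.822 FPKM in MPs and 6.70 to 8.87 FPKM in APL progenitors. Cd79b, which made most of the MP sum, had 11.9 to 14.3 FPKM in MPs and 0.131 to 0.351 FPKM in APL progenitors. Ebf1 was at or under 3 fragments in every APL library, and Ms4a1 in every library of both groups. Their part in the difference of Tcf7 was not tested.

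Of the destruction complex genes, which hold β-catenin low, Axin2 was called lower and Axin1, Apc and Gsk3b were not called. Axin1, the constitutive scaffold, on chromosome 17 from 26138686 to 26195811, counted 1997, 2014 and 2250 scaled fragments in the MPs and 1767, 2046 and 1912 in the APL progenitors. The groups overlapped, and the log2 fold change was −0.13 ± 0.08 (SE) (adjusted p = 0.19 from limma, 95% interval of the ratio of APL to MP 0.803 to 1.04).

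Axin2, on chromosome 11 from 108920349 to 108950781, is a scaffold that is itself a widely used target gene of β-catenin and TCF. It had 18.7, 27.6 and 27.1 scaled fragments in MP libraries 1 to 3, or 20, 29 and 30 before scaling, and it was at 0, 2 and 0 fragments in APL libraries 1 to 3. A low but steady level in normal MPs thus stood against 2 fragments in all APL libraries together. The log2 fold change was −4.17 ± 0.46 (SE) (adjusted p = 4.8e-05 from limma), and the ratio of MP to APL from the fragments was 34.4 with an exact 95% counting interval of 9.22 to 289. Per length, Axin2 reached no more than 0.225 FPKM in any library.

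Apc, the second scaffold, on chromosome 18 from 34207775 to 34322190, counted 1650, 1684 and 1164 scaled fragments in the MPs and 1830, 1511 and 1480 in the APL progenitors. MP library 3 was lower than the other MP libraries, and the groups overlapped. The log2 fold change was 0.11 ± 0.15 (SE) (adjusted p = 0.52 from limma, 95% interval of the ratio 0.856 to 1.37), and it was −0.06 without MP library 3. The locus of Apc in the table overlaps that of the gene model Gm10548, so fragments could be divided between them.

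Gsk3b, the kinase that marks β-catenin for degradation, on chromosome 16 from 38085064 to 38246079, counted 1707, 1695 and 1339 scaled fragments in the MPs and 1858, 1930 and 1975 in the APL progenitors. Each APL library was above each MP library, with MP library 3 the lowest again. The log2 change of 0.29 ± 0.10 (SE) passed the adjusted p alone (0.030 from limma) but, at 1.22-fold with a 95% interval of 1.04 to 1.43, not the fold change threshold. With every library scaled to the same total, the log2 fold change of Gsk3b was 0.16 (adjusted p = 0.28 from limma). Fragments could be divided with BC031361, whose locus overlaps that of Gsk3b.

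Tle1, a Groucho corepressor that TCF/LEF factors recruit when β-catenin is absent, was the single member called higher. On chromosome 4 from 72117142 to 72200919, it counted 247, 254 and 237 scaled fragments in the MPs and 875, 977 and 950.4 in the APL progenitors. The libraries of each group lay close together and the groups were far apart. The mean was 246 ± 8.56 in MPs and 934 ± 52.7 in APL progenitors (SD, n = 3 each), amounting to a log2 change of 1.92 ± 0.09 (SE), or 3.78-fold (adjusted p = 2.4e-07 from limma). Its relatives Tle3 and Tle4 had log2 fold changes of 0.29 and −0.11 and were not called, and Tle2 fell by 0.73 on the log2 scale, to 83.8 ± 17.9 scaled fragments (adjusted p = 0.0082 from limma).

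**Figure D3:**
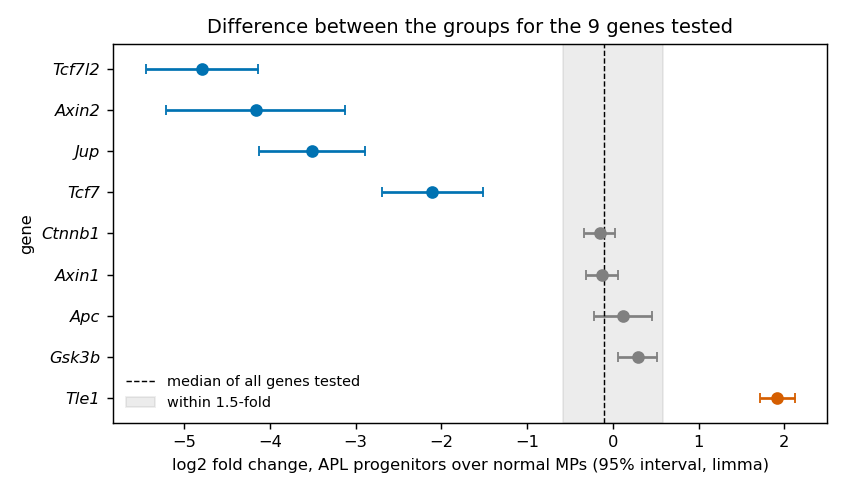
Log2 fold change of APL progenitors over normal MPs for the 9 genes tested, with limma's 95% intervals. Blue marks genes called lower, orange the gene called higher and grey those not called. The grey band spans a 1.5-fold change in either direction and the dashed line is the median of all genes tested, −0.10. Ctnnb1, Axin1, Apc and Gsk3b lie within the band.

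Compared per length, the members were spread over a wide range of levels. In normal MPs the order of mean FPKM was Ctnnb1 (109.3), Axin1 (18.1), Gsk3b (7.52), Apc (3.65), Tle1 (2.16), Tcf7 (1.32), Jup (1.13), Tcf7l2 (0.840), Axin2 (0.195) and Lef1 (0.0194). Ctnnb1 was at the 96.0th percentile of all genes of the table, Gsk3b at the 56.9th and Axin2 at the 25.5th. The libraries of Tcf7 and Jup overlapped, as did those of Jup and Tcf7l2, while all other neighbors in the order were apart. In APL progenitors the order was kept except that Tle1, at 8.21 FPKM, stood above Apc at 3.93 FPKM, and overlap between neighbors was seen only for Axin2 and Lef1. Below Apc, the levels in APL progenitors were 0.304 FPKM for Tcf7, 0.0960 for Jup, 0.0206 for Tcf7l2 and 0.0047 for Axin2.

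The other genes of the pathway were read from lists of 145 genes sorted by role, of which 120 are in the table and 104 could be tested. Of these, 21 were higher and 28 lower in APL progenitors and 55 were not called. These counts were close to the shares over all genes tested, 21.7% higher and 24.4% lower. The median log2 fold change was −0.10 for both the lists and all genes tested. Of the calls, 4 of the 21 higher and 10 of the 28 lower genes passed the filter on low values only through the group where they were high. As for Axin2, the filter itself favored a difference in these genes, so their calls are not independent of it. Among ligands and the genes for their release, 7 of 21 could be tested, with 4 higher and 2 lower. Wnt10b, among the higher, and Wnt5b, among the lower, passed the filter only through the group where they were high. All Wnt ligands tested had few fragments, at most 26 before scaling in any library. Wls, the carrier that brings Wnt proteins to the cell surface, was the exception in level. It had 1882 ± 185 scaled fragments in MPs and 4260 ± 94.5 in APL progenitors (SD, n = 3 each), or 1.18 higher on the log2 scale (adjusted p = 2.5e-06 from limma).

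Among 18 receptors and R-spondin genes tested, 6 were higher, 8 lower and 4 not called, against 21.7% higher and 24.4% lower among all genes tested. Of the lower genes, Fzd4, Fzd6, Fzd8 and Rspo1 passed the filter on low values only through the MPs. Ryk, a kinase-like Wnt co-receptor, fell from 1512 ± 159 to 11.5 ± 2.87 scaled fragments (−6.93 on the log2 scale, adjusted p = 1.6e-08 from limma). Fzd1, a Frizzled receptor, rose from 4.64 ± 0.839 to 313 ± 15.9 scaled fragments (5.81), and Lgr6, a receptor of R-spondins, from 4.36 ± 1.497 to 309 ± 18.7 (5.89). In the lower group of each of these 3 genes a library held at most 12 fragments before scaling, so the size of the fold is imprecise. The co-receptors Lrp5 and Lrp6, which canonical signaling needs, had log2 fold changes of 0.18 and −0.17 and were not called. Of the 9 secreted inhibitors tested, 1 was higher (Sfrp1) and 2 were lower (Apcdd1 and Sfrp4). These 3 had at most 22 fragments before scaling in any library. They passed the filter only through the group where they were high, so the filter itself favored a difference in them. Kremen1, a receptor of Dkk proteins and the most abundant of the 9, was not called.

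Among the other genes of the destruction complex and Dishevelled, 19 of the 24 tested were not called, 1 was higher and 4 were lower. Among all genes tested, 21.7% were higher and 24.4% lower. The higher gene, Nkd2, and Nkd1, among the lower, passed the filter on low values only through the group where they were high. The largest changes by the rule were those of Frat1, a Gsk3-binding protein, at −1.47, Siah1b, a ubiquitin ligase, at −0.96, and Dvl1, a Dishevelled protein, at −0.82 on the log2 scale (adjusted p from limma at most 1.0e-04). Dvl1 went from 2098 ± 199.7 to 1186 ± 30.1 scaled fragments, while Dvl2 and Dvl3 had log2 fold changes of 0.20 and −0.03 and were not called. The median over the list was −0.08.

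Among nuclear partners of β-catenin, 14 of the 20 tested were not called, 2 were higher and 4 were lower, with a median log2 fold change of −0.10. Among all genes tested, 21.7% were higher and 24.4% lower. Tcf7l1, among the lower, passed the filter on low values only through the MPs. Bcl9 and Bcl9l, paralogs that link β-catenin to Pygopus, went in opposite directions. Bcl9 fell from 570 ± 5.64 to 302 ± 16.9 scaled fragments (−0.91 on the log2 scale) and Bcl9l rose from 306 ± 29.0 to 686 ± 76.5 (1.16). Ctbp2, a corepressor, rose from 1015 ± 48.0 to 1703 ± 88.0 (0.75). In limma the adjusted p of these 3 genes was 2.7e-05 or less.

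Of the 13 junction genes tested, the group in which plakoglobin takes part, 3 were higher, 3 lower and 7 not called. The share called was near the 46.1% among all genes, and the median log2 fold change was 0.20. Pkp2, among the lower, passed the filter on low values only through the MPs. Dsp, the desmosomal plakin that plakoglobin binds, counted 217, 191 and 148 scaled fragments in the MPs and 3478, 3333 and 3364 in the APL progenitors. It rose 18.4-fold, against the 11.4-fold decrease of Jup (log2 fold change 4.203, adjusted p = 2.9e-08 from limma). Perp, a desmosomal membrane protein, rose from 20.4 ± 5.81 to 655 ± 57.6 scaled fragments (4.97). Pkp4, a catenin of the plakophilin group, fell from 609 ± 54.3 to 8.61 ± 5.02 scaled fragments (−6.14), with at most 11 fragments before scaling in an APL library. The adherens junction catenins Ctnna1 and Ctnnd1 both had a log2 fold change of 0.20 and were not called.

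Of 19 common Wnt target genes tested, 5 were higher, 8 lower and 6 not called, against 21.7% higher and 24.4% lower among all genes tested. The median log2 fold change was −0.48 over these 19 genes and −0.10 over all genes tested. Fosl1, among the higher, and Apcdd1 and Nkd1, among the lower, passed the filter on low values only through the group where they were high. Several of these target genes have many other regulators in blood cells. Ccnd2, a D-type cyclin, fell from 2469 ± 236 to 14.4 ± 2.48 scaled fragments (−7.33 on the log2 scale), and Sox4, an HMG-box transcription factor, from 1152 ± 60.7 to 9.78 ± 3.97 (−6.82). Ascl2, a bHLH transcription factor, rose from 14.8 ± 2.14 to 342 ± 50.5 (4.44). Their adjusted p in limma was 1.9e-07 or less.

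**Figure D4:**
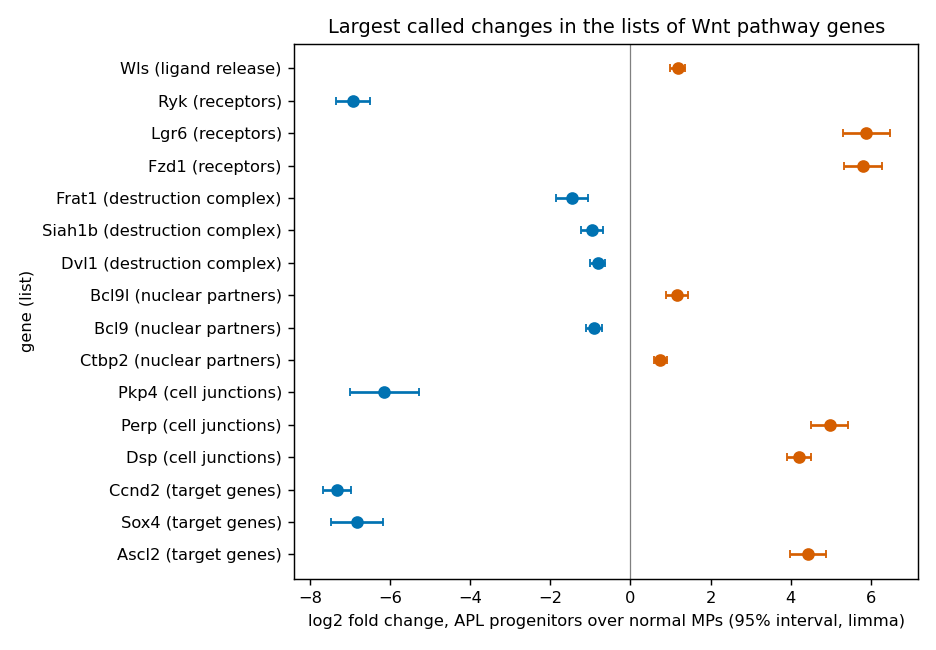
Log2 fold change of APL progenitors over normal MPs, with limma's 95% intervals, for the 16 genes named by rule from the pathway lists, with the list in brackets. Orange marks higher and blue lower genes. The changes run from −7.33 (Ccnd2) to 5.89 (Lgr6), with both directions in the lists of receptors, nuclear partners, cell junctions and target genes.

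The genes whose 6 values were most like those of Jup, by the Euclidean distance of centered log2 values among 11060 genes, were Cela1, Rnf122, Slc7a8, Coro2a and Slc39a14, at distances of 0.25 to 0.54 and with log2 fold changes between −3.50 and −3.27. Those most like Tcf7l2, among 11061 genes, were Rbpms, Ociad2, Gcnt2, Kctd14 and Elovl6, at distances of 0.35 to 0.58 and with log2 fold changes between −4.99 and −4.43. With 2 groups of 3 libraries, this distance is set mainly by the size of the difference between the groups.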

How the data were processed

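RNA-seq of 3 libraries of normal MPs and 3 of c-Kit+ APL progenitors was analysed. The authors deposited 1 table of 16440 genes with FPKM and a fragment signal per gene and library. The tool that made the deposited fragment values is not given in the sources used here. They behave as fragments multiplied by a factor of each library: 81.5% to 85.9% of nonzero values were whole multiples (within 0.01) of the library's step, 0.867 to 1.23, so no count test was used. The labels name CASAVA 1.8, TopHat2 2.0.6 and mm10, whereas the paper's methods name STAR, mm9, HTSeq-count and DESeq2. Starts in the table count from 0 (7057 RefSeq starts are 1 higher, 586 equal) and are given here from 1.

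limma 3.58.1 (R 4.3.3, eBayes with a trend) was run on log2(scaled fragments + 1) over 14595 genes with at least 1 in at least 3 libraries, with Benjamini-Hochberg adjustment. The fit was tested on simulated data of 15361 genes with known changes. Of 89 changes of 1 on the log2 scale 76 were recovered, and of 111 changes of 2 all 111, with 1 false call. Changes were set only in genes above a minimum mean, and the spread was preset and not taken from these libraries. The simulation thus does not cover genes with as few fragments as Axin2. Genes at 3 fragments or fewer were taken as not told from absence. Exact permutation tests and counting intervals used scipy 1.17.1. Promoters were RefSeq's of GRCm38.p6, matched by symbol and used for 8 of the 10 members. Named pathway genes were the 3 largest called changes per list with separate groups and a mean of at least 50 scaled fragments. Members and lists were chosen with earlier results of these data known. The 21 alternatives covered pseudocount, filter, scaling, FPKM, variance model, call rule, the library number as a block and each library left out.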

Additional observations from a re-analysis of the deposited data

How the results depend on the processing

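The calls of the 9 tested members and 16 named pathway genes held under each alternative fit that gave a value. With a fold change over 2 as the call rule, the members' counts stayed at 4 lower and 1 higher, those of the pathway lists went to 21 and 17, and Bcl9, Ctbp2, Dvl1 and Siah1b, whose changes are under 2-fold, would not be called. With no filter on low values 5 of 10 members were lower, since Lef1, with at most 2 fragments in a library, then entered the test. Apc, never called, changed sign to −0.0180 with every library scaled to the same total and with voom weights (−0.0159), and ranged from −0.06 to 0.21 with 1 library left out (−0.0598 without MP library 3). Scaling to the same total shifted the median over all genes by −0.13. Ctnnb1 then had a log2 fold change of −0.29 (adjusted p = 0.0089 from limma) and Axin1 one of −0.26 (0.0099), both still under 1.5-fold. With voom weights these were −0.29 (adjusted p = 0.0064 from limma) and −0.26 (0.0094). With quantile normalization they were −0.25 (adjusted p = 0.012 from limma) and −0.13 (0.11). On log2(FPKM + 1), which left 11131 genes and 6 members to test, 1 member was lower (Tcf7) in place of 4, 1980 genes were lower in place of 3558, and 13 pathway genes were higher and 12 lower in place of 21 and 28. Jup, Tcf7l2, Axin2 and Lef1 had no value there. On log2(FPKM + 0.1) the log2 fold changes were −2.95 for Tcf7l2, −1.83 for Tcf7 and −1.49 for Axin2. With at least 1 scaled fragment in all 6 libraries, 18 of 83 pathway genes were lower and Axin2 had no value. With 1 library left out, 2734 to 3256 genes were higher and 2913 to 3507 lower. In scaled fragments, the share of Jup in both catenins differed by −1.33 percentage points in place of −0.93, and that of Tcf7l2 in the TCF/LEF genes by −34.9 in place of −27.9. Without 1 library these differences ran from −1.02 to −0.879 and from −31.5 to −25.5, and that of Tcf7l1 from −10.6 to −6.09.

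Fitted with a replicate block for the library number, 4 members were lower and 1 was higher, with 3589 and 3164 genes lower and higher in all. Same-numbered libraries deviated together with correlations of 0.13, −0.0016 and 0.13 over 11061 genes, so the numbers were not taken to pair the libraries. Levels under about 3 fragments, as for Lef1 in both groups and Axin2 and Tcf7l2 in APL progenitors, are limited by depth.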

Other observations

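The genes here were picked with their values in view. Rnf43 and Znrf3, paralogous membrane ubiquitin ligases that remove Frizzled receptors and are both known as Wnt targets, went in opposite directions. Rnf43 counted 130.2, 114 and 112 scaled fragments in the MPs and 444, 511 and 462 in the APL progenitors, in the order of libraries 1 to 3, a 3.95-fold increase (adjusted p = 1.2e-06 from limma). Znrf3 counted 239.8, 209 and 188 scaled fragments in the MPs and 77.8, 78.0 and 91.3 in the APL progenitors, in the order of libraries 1 to 3, a 2.55-fold decrease (adjusted p = 6.7e-05 from limma). Nkd1 and Nkd2, which bind Dishevelled, passed the filter on low values only through the group where they were high: Nkd1 had at most 24 fragments before scaling in an MP library and 2 in an APL library, and Nkd2 at most 1 and 10.

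Without the genes of chromosomes 8 and 15, whose median log2 fold changes were 0.48 and 0.46 against −0.15 on the others, the pathway lists held 19 higher and 25 lower genes of 91 tested. Over all chromosomes, 21.7% of all genes tested were higher and 24.4% lower. These shares were not computed without chromosomes 8 and 15, so the 2 counts have no background of their own. The proto-oncogene Myc, on chromosome 15, had 8623 ± 483 scaled fragments in MPs and 6592 ± 501 in APL progenitors (SD, n = 3 each) and was not called at a log2 fold change of −0.39, while the cyclin Ccnd1 fell from 132 ± 6.87 to 16.7 ± 5.94 scaled fragments (−2.96 on the log2 scale, adjusted p = 1.0e-05 from limma). Among Frizzled receptors, Fzd5 rose from 84.0 ± 10.8 to 193 ± 19.8 scaled fragments (adjusted p = 1.9e-04 from limma). Fzd6 had 111 ± 21.9 and 2.39 ± 2.07 scaled fragments and passed the filter only through the MPs.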
